A study of Homo sapiens with 40 samples.

Results

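Regions of open chromatin that differed between 12 h and 1 h of heregulin (HRG) treatment were examined in BT474, a HER2-amplified luminal breast cancer cell line. Members were chosen by the presence of a peak. Peaks of the 4 HRG lists, 2 libraries at 12 h and 2 at 1 h, were merged wherever they overlapped by at least 1 bp on chromosomes 1 to 22 and X. This gave 57194 regions. Of these, 3590 held a peak in 2 of 2 libraries at 12 h and 0 of 2 at 1 h ("12 h only", 6.28%), and 842 held the opposite pattern ("1 h only", 1.47%), so that 4432 regions were members. A region that holds a listed peak in a library is called open in that library. The same rule in the 4 vehicle libraries gave 854 regions at 12 h only (1.59%) and 782 at 1 h only (1.45%) of 53862.

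Accessibility was measured by ATAC-seq, in which a transposase cuts and tags accessible DNA, in BT474 and in BT474R, its trastuzumab-resistant clone 5. The cells were starved of serum and then treated with EGF, HRG or vehicle for 1, 12 or 24 h, and a baseline was taken at 0 h after starvation. There are 20 groups of 2 libraries, 40 in all, which together hold 76603 merged regions. The 4 groups used here are BT474 with HRG at 12 h and at 1 h and BT474 with vehicle at 12 h and at 1 h, and vehicle was water in fresh starvation medium. Treatments were done in duplicate, and nothing in the labels says that the duplicates came from separate cultures, so the p-values below measure only the spread between these libraries. BT474R is 1 clone, and so stands for that clone rather than for resistance in general.

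Heregulin is a secreted ligand of HER3 and HER4, and the HER2-HER3 pair that it brings together signals strongly through PI3K and AKT and through RAS and ERK. Within the first hour ERK signaling switches on immediate early genes such as EGR1, FOS and NR4A1, and many of these are shut off again within hours by feedback inhibitors such as the DUSP phosphatases. The FOS and JUN proteins form the dimer AP-1, which binds TGANTCA sites in distal regulatory regions. TEAD factors bind GGAATG sites together with the coactivators YAP and TAZ and control genes of the cytoskeleton and of cell adhesion.

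The luminal and HER2 marker promoters, ERBB2, EPCAM, CDH1, KRT8, KRT18, KRT19, GATA3, FOXA1, TFAP2C and SPDEF, were open in all 8 HRG and vehicle libraries (10 of 10). Of 5 basal or myoepithelial marker promoters 3 were open in each library (TP63, ACTA2 and OXTR, but not KRT14 or MYH11), of 5 fibroblast markers 1 or 2, of 5 immune markers 1 (CD68, but not PTPRC, CD3E or LYZ) and of 5 endothelial markers 3 (not PECAM1 or TEK). The HRG lists held 53484 and 52986 peaks at 12 h and 47571 and 49579 at 1 h, a difference in means of 4660. With 2 libraries against 2 the exact two-sided permutation p was 0.333, the smallest this design allows. The vehicle lists held 49386 and 49767 peaks at 12 h and 48788 and 49195 at 1 h. Read depth is not part of the peak lists, so the precision of a single peak score is unknown. In bulk chromatin, opening in fewer cells and weaker opening in every cell cannot be told apart.

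Members of several kinds recur below, and the 101 bases around the summits of examples are given from GRCh38, + strand, 5′ to 3′. The first 3 were the strongest reported 12 h only regions with an AP-1 match that were open in none of the 4 vehicle libraries. Capitals mark TGANTCA on either strand. They lie at chr1:43582423-43582523 in PTPRF, which encodes a receptor tyrosine phosphatase (at an internal promoter), at chr7:150400297-150400397 at an annotated start site, with ENSG00000284691 as the nearest protein-coding gene by start, and at chr2:116719954-116720054, where no protein-coding gene starts within 100 kb.
PTPRF: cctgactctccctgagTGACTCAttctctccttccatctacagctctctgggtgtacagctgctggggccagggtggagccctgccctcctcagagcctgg
ENSG00000284691: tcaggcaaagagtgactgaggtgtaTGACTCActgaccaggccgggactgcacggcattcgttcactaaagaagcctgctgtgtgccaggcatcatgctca
chr2 intergenic: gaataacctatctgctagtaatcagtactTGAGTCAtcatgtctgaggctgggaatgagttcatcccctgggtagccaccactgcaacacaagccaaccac

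The next 3 were 1 h only regions with a TEAD match, chosen after the values were seen, and capitals mark GGAATG or its reverse complement. They lie at chr10:32938317-32938417 in an intron of ITGB1, the integrin beta 1 subunit, at chr1:184156639-184156739, intergenic and nearest to the end of TSEN15, and at chr6:3911972-3912072 at an annotated start site, with FAM50B as the nearest protein-coding gene by start. The ITGB1 region was open in 4 of 4 vehicle libraries, the TSEN15 region in 1 and the FAM50B region in 0.
ITGB1: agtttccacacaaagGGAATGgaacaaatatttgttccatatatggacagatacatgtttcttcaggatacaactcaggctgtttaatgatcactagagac
TSEN15: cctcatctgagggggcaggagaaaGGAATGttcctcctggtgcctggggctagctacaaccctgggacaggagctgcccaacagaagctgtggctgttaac
FAM50B: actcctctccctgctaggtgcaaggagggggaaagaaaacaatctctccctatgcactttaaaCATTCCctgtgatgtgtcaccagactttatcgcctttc

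The last pair were strong 1 h only regions just past the ends of genes, open in no vehicle library, and neither holds a match to AP-1 or TEAD. They lie at chr6:131946976-131947076, downstream of CCN2, and at chrX:154347321-154347421, downstream of FLNA.
CCN2: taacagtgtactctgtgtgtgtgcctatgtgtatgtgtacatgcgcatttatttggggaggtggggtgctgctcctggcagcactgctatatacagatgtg
FLNA: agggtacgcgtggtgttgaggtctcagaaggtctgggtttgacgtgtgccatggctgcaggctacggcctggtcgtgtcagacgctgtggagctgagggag

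Most HRG regions did not differ by this rule. A peak was present in all 4 HRG libraries in 42712 regions and in 3 of 4 in 4115. Just outside the threshold lay 3117 regions open in 2 of 2 libraries at 12 h and 1 of 2 at 1 h, 998 regions with the opposite pattern, 3471 open in 1 of 2 at 12 h only and 1359 open in 1 of 2 at 1 h only. The excess of 12 h only over 1 h only regions moved with the length of the lists. When each of the 8 lists was reduced to its 47571 top-scoring peaks, the counts became 1947 at 12 h only and 1626 at 1 h only in HRG, and 709 and 892 in vehicle.

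Members were weak peaks. The authors' peak score was ranked within each library, and the rank percentile is the share of that library's peaks below it. The median rank percentile was 13.7 for 12 h only regions and 13.0 for 1 h only regions, against 56.7 for regions open in all 4 HRG libraries. Just outside the rule it was 14.6 where both libraries at 12 h and 1 at 1 h held a peak, 12.2 where the times were exchanged, 5.54 for 1 of 2 at 12 h only and 5.10 for 1 of 2 at 1 h only. Only 39 of 3590 and 26 of 842 regions ranked at or above the 50th percentile. Promoters, within 1 kb of an annotated start site, made up 15.4% of 12 h only and 18.1% of 1 h only regions, against 36.1% of all merged regions and 20.7% of those open in 3 of 4 libraries. The median GC content within 100 bp of the summit was 49.8% and 45.3%, against 53.7% for all merged regions.

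Some members were closed in each of the 4 vehicle libraries at 1 h and 12 h, and others were open in all 4 of them. Of the 3590 regions at 12 h only, 1111 (30.9%) were open in no vehicle library at 1 h or 12 h, 848 (23.6%) were open in all 4, and 186 (5.18%) showed the same change in vehicle. Of the 842 at 1 h only, 462 (54.9%) were never open in vehicle, 79 (9.38%) were open in all 4, and 34 (4.04%) showed the same change. Among all merged regions 10.5% were never open and 74.3% were open in all 4 vehicle libraries. The 12 h only regions therefore include 848 that had no peak at 1 h of HRG but held one in each of the 4 vehicle libraries.

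Libraries outside the rule gave the state of the members at other times and with EGF. At 24 h of HRG, 76.0% and 74.0% of the 12 h only regions were open in the 2 libraries, against 13.7% and 14.7% of the 1 h only regions. At 24 h of vehicle, without ligand, 59.1% and 53.1% of the 12 h only and 29.7% and 26.7% of the 1 h only regions were open. With EGF, which binds EGFR rather than HER3, 40.5% and 23.6% of the 12 h only regions were open at 1 h, 75.8% and 83.3% at 12 h, and 80.6% and 85.6% at 24 h. The 1 h only regions ran the other way, with 77.7% and 62.7% open at 1 h of EGF and 16.6% and 36.3% at 12 h. At baseline 53.6% and 41.3% of the 12 h only and 29.1% and 22.2% of the 1 h only regions were open. Of all merged regions 86.7% and 86.0% were open at 24 h of HRG and 83.6% and 80.0% at baseline. The shares of all merged regions at 24 h of vehicle were 85.6% and 83.6%. With EGF the shares of all merged regions were 87.5% and 82.8% at 1 h, 88.1% and 90.7% at 12 h and 88.7% and 90.7% at 24 h. The 12 h only regions were thus open less often than merged regions in general in each of these groups. The full change, 2 of 2 against 0 of 2, occurred in the EGF libraries in 30.4% of the 12 h only regions (all merged regions 3.50%) and in 29.1% of the 1 h only regions (all merged regions 1.18%). EGF and HRG share no library here.

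**Figure D1:**
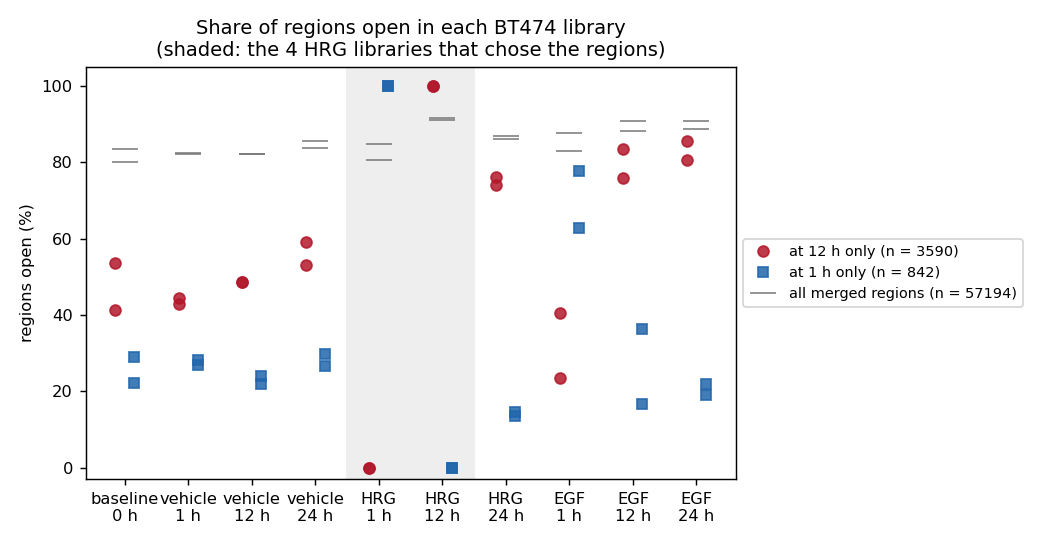
Share of 12 h only regions (circles, n = 3590), 1 h only regions (squares, n = 842) and all merged regions (lines, n = 57194) open in each BT474 library, in percent, by treatment and time. Each point is 1 library, and the shaded HRG libraries at 1 h and 12 h chose the regions and are at 0 or 100 by construction. At HRG 24 h the 12 h only regions sit at 74.0% and 76.0% and the 1 h only regions at 13.7% and 14.7%.

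Part of the 12 h only regions were open in BT474R without ligand. Of the 1111 regions never open in BT474 vehicle at 1 h or 12 h, 48.5% and 35.2% were open in the 2 BT474R baseline libraries and 52.5% and 49.8% at 1 h of vehicle, against 13.9% and 6.6% in the BT474 baseline libraries. These regions were chosen as closed in BT474 vehicle, which favours a low share in untreated BT474, and BT474R was not filtered. Of all merged regions 76.1% and 65.6% were open at BT474R baseline and 83.6% and 80.0% at BT474 baseline. In BT474R the shares of the 1111 regions were lower at 12 h of vehicle, 17.2% and 28.4%, and at 24 h of vehicle, 30.5% and 38.8%, and in BT474 at 24 h of vehicle they were 18.5% and 12.2%. The numbers of peaks listed at baseline overlapped, at 53007 and 44546 in BT474R and 49997 and 47785 in BT474. At 12 h of HRG in BT474R 46.3% and 42.5% were open, in lists of 45808 and 42604 peaks, while the lists of BT474R with vehicle at 12 h held 32479 and 40331. The PTPRF region shown above was open in 18 of 20 BT474R libraries. Of the 462 1 h only regions never open in BT474 vehicle, the shares open in BT474R were 10.6% and 6.3% at baseline, 17.3% and 17.7% at 1 h of vehicle, 22.1% and 23.6% at 1 h of HRG and 25.5% and 19.7% at 1 h of EGF.

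Several of the strongest 1 h only regions lay just past the ends of genes, a feature looked for after the regions had been seen. Of the 26 regions that ranked at or above the 50th percentile, 9 had a gene end within 5 kb and 8 lay downstream of it, against 4 and 3 of the 39 such 12 h only regions. Over all 842 the share with a gene end within 5 kb was 10.7%, over all 3590 it was 10.2%, and over all merged regions it was 12.8%. The 1 h only regions of 1 kb or wider numbered 23 (2.73%), and 16 of them had a gene end within 5 kb, against 11 of 27 such 12 h only regions and 2186 of 11361 over all merged regions.

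The region past NR4A1, an immediate early nuclear receptor, lay 0.844 kb downstream of the gene (chr12:52059522-52061335), with peak scores of 1572 and 1837 in the 2 libraries at 1 h of HRG and no peak at 12 h. Both vehicle libraries at 12 h and neither at 1 h held a peak there. Downstream of CCN2, a secreted matrix protein and classic YAP-TEAD target, the region at chr6:131945993-131947495 scored 962 and 1336 at 1 h of HRG. No other BT474 or BT474R library held a peak at this position, EGF included.

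Downstream of FLNA, which encodes the actin cross-linker filamin A, the region at chrX:154347047-154348483 scored 869.6 and 925 at 1 h of HRG. Past MYADM, a membrane protein gene, the region at chr19:53876721-53878070 scored 905 and 989. Another, at chr11:65850226-65852372 over CFL1 (cofilin, which severs actin filaments) and SNX32, scored 874 and 1253. Each of these was open in 2 of 2 EGF libraries at 1 h and in none of the EGF libraries at 12 h or 24 h, of the HRG libraries at 24 h or of the vehicle libraries at 1 h and 12 h. Inside EPPK1, which encodes the cytolinker epiplakin, a region of 2688 bp behaved in the same way, with scores of 978 and 1553 at 1 h of HRG. Other 1 h only regions ranked at or above the 50th percentile and were closed in vehicle at 1 h and 12 h. Among them were regions downstream of the ends of EGR3, TRIB1, NAB2, MYH9 (nonmuscle myosin) and KRT8. The KRT8 region lay 6.5 kb past the end, beyond the 5 kb used above, and ranked 22.4 and 78.0 in the 2 libraries. Regions in PMEPA1 and PDLIM5 lay inside the gene, 52.9 and 119 kb from its end.

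Most of the 12 h only regions of highest rank were open in vehicle. The strongest of those open in all 4 vehicle libraries, 0.357 kb past the end of CRAT (carnitine acetyltransferase) at chr9:129093297-129094483, scored 1115 and 898 at 12 h and had no peak at 1 h of HRG, but was also open in both baseline and both EGF 1 h libraries. An intron of EEFSEC, the selenocysteine elongation factor, scored 908 and 995 at chr3:128334047-128334994 and was open in all 4 vehicle libraries too. Among the 39 strong 12 h only regions, 4 were never open in vehicle. At PTPRF (chr1:43582225-43582589) the scores were 637 and 608, and the region was also open in both libraries of HRG 24 h and of EGF at 1, 12 and 24 h. Beside FADS2 and FADS3, fatty acid desaturase genes (chr11:61868635-61870437), they were 811 and 479, and within IFFO1 and 5.46 kb downstream of the start of GAPDH (chr12:6538998-6540136) they were 675 and 522. At the fourth, 62.8 kb upstream of RPL7, a ribosomal protein gene, they were 572 and 655.

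Sequence matches within 100 bp of the summit, on both strands, were counted for a fixed set of consensus letters. An AP-1 match was present in 15.8% of 12 h only and 20.2% of 1 h only regions, against 16.2% of all merged regions. Outside promoters the shares were 16.4%, 21.7% and 20.9% in the same order. The share depended strongly on the vehicle libraries. For 12 h only regions it was 35.0% where 0 vehicle libraries were open, 13.2% with 1, 7.08% with 2, 6.33% with 3 and 3.77% with 4. For 1 h only regions it ran from 28.4% with 0 to 2.53% with 4. The same fall was present in all merged regions, from 35.7% to 13.1%, and regions open in all 4 HRG but no vehicle library reached 65.9%. In each of these sets the AP-1 share was highest where no vehicle library was open. It also differed between the times in vehicle, with 22.9% at 1 h only and 9.02% at 12 h only. Of the 389 12 h only regions with a match and no open vehicle library, 212 had the nearest copy within 30 bp of the summit.

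TEAD matches differed between the times. A GGAATG match was present in 31.4% of 1 h only regions, 11.3% of 12 h only regions and 14.1% of all merged regions, and vehicle gave 18.4% at 1 h only and 12.6% at 12 h only. Among 1 h only regions the share was 33.8% where no vehicle library was open and 39.2% where all 4 were, against 19.0% and 13.2% of all merged regions in those classes. With the longer letters GGAATGT, tried after the data were seen, the shares were 14.4% (121 regions) at 1 h only, 2.59% (93) at 12 h only and 4.66% of all merged regions. TEAD and AP-1 matches occurred together in 46 (5.46%) of 1 h only, 69 (1.92%) of 12 h only and 2.70% of all merged regions. GATA letters (AGATAA) were present in 14.6% of 1 h only and 10.5% of 12 h only regions (all merged 8.22%), and CEBP letters (TTGCNNAA) in 9.14% and 14.9% (all merged 10.0%). Members held fewer promoters than all merged regions. Outside promoters GATA was present in 16.1% of 1 h only, 11.1% of 12 h only and 10.8% of all merged regions. In the same order CEBP was present in 9.28%, 15.8% and 12.6%, and TEAD in 32.3%, 11.5% and 16.7%.

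**Figure D2:**
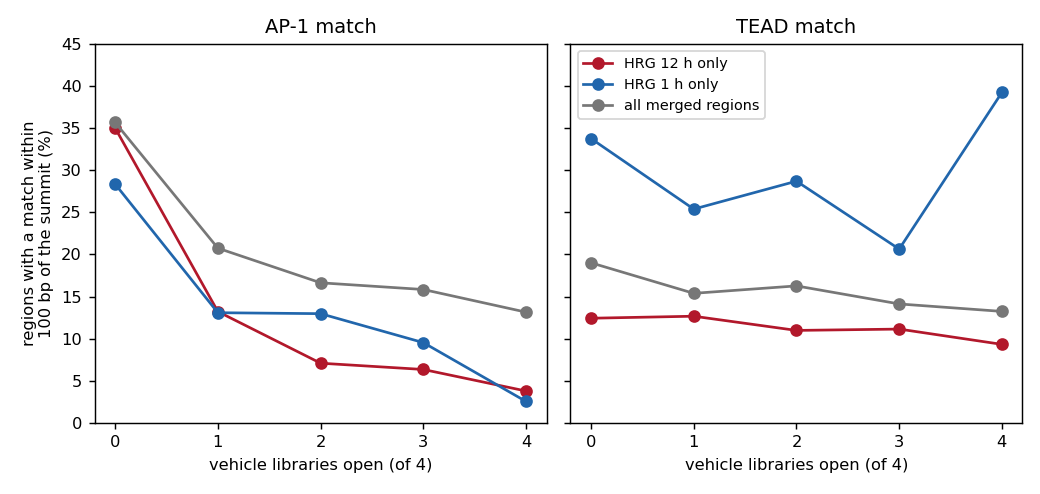
Share of regions, in percent, with an AP-1 (left) or TEAD (right) match within 100 bp of the summit, by the number of the 4 vehicle libraries in which the region was open, for HRG 12 h only, HRG 1 h only and all merged regions. AP-1 falls in all 3 sets, from 35.0% to 3.77% in the 12 h only regions, whereas TEAD in the 1 h only regions lies above the other sets at every point, from 20.6% to 39.2%.

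Genes of the pathway were read from lists of named groups, by the protein-coding gene start nearest to each member within 100 kb. Of 19962 protein-coding genes, 2082 (10.4%) had a 12 h only region and 578 (2.90%) a 1 h only region. Of 20 ERK feedback inhibitors 6 had a 12 h only region, DUSP5, DUSP6, SPRY4, SPRED2, LRIG1 and SOCS3, and 3 had a 1 h only region, DUSP1, DUSP4 and ERRFI1. The DUSP6 region at chr12:89346387-89346680, 6.0 kb downstream of the start of this ERK phosphatase, was open in no vehicle and no baseline library and in both libraries of HRG 24 h and of EGF 12 h. Among 24 immediate early genes 5 had a 12 h only region (IER5, KLF10, MYC, ZFP36L1 and BTG2) and 4 a 1 h only region (EGR3, IER2, KLF6 and CCN2). Within 10 kb the counts were 0 and 3 of 24. The MYC and BTG2 regions were open in 2 of 2 vehicle libraries at 1 h and at 12 h and in both baseline libraries. The IER5 and KLF10 regions were open in 0 of 2 at each time. At KLF6, a zinc finger factor, 3 of the 14 merged regions nearest to it were 1 h only, all 3 closed in vehicle, HRG 24 h and baseline.

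The AP-1 and related genes numbered 3 of 16 at 12 h only (FOS, FOSL2 and JUN) and 2 of 16 at 1 h only (FOSB and JDP2). The FOSL2 and JUN regions were open in 2 of 2 vehicle libraries at 1 h and at 12 h, and in both baseline and both EGF 1 h libraries. The FOS region was open in 1 of 2 vehicle libraries at 1 h, 0 of 2 at 12 h and both at baseline. At the FOSB promoter (chr19:45467527-45468070), 0.3 kb upstream of the start, the 1 h only region held a cyclic AMP response element (CRE, TGACGTCA) and showed the same change in vehicle, 2 of 2 open at 1 h and 0 of 2 at 12 h. Among the 15 ERBB receptors and ligands EGFR, ERBB3 and TGFA had 12 h only regions and none had a 1 h only region. A region counts here whatever its peak score, down to the deposited minimum. The scores of these regions, and the vehicle state at EGFR and TGFA, are not given here. The count alone therefore does not show that these loci gained accessibility with HRG. One of the ERBB3 regions, in an internal promoter of the HER3 gene (chr12:56086154-56086436), held both an AP-1 and a TEAD match and was open in 1 of 4 vehicle libraries. For the 31 genes of the HER3 signal relay the counts were 5 at 12 h only and 1 at 1 h only, and an internal RPS6KA1 promoter (chr1:26555809-26556254), the gene of an ERK-activated kinase, was closed in vehicle, baseline and EGF 1 h and open in both libraries of HRG 24 h and EGF 12 h.

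Steroid receptors and luminal factors had the highest count, with 9 of 24 genes near a 12 h only region (GREB1, FOXA1, GATA3, SPDEF, EHF, GRHL1, GRHL2, GRHL3 and TBX3) and 3 near a 1 h only region (GREB1, GATA3 and GRHL1). The 12 h only regions named for EHF, TBX3, GATA3 and SPDEF were each open in at least 1 vehicle library. All of them except an SPDEF region at chr6:34543325-34544323 were also open in both baseline libraries. The vehicle state near the remaining genes is not given here. Counts by gene rise with the number of regions near each gene, which was not matched between the lists and all genes. Regions open in all 8 HRG and vehicle libraries numbered 153 for these 24 genes, against 32029 for 14170 genes in all. Of 30 adhesion, matrix and protease genes 6 had a 12 h only region. The MMP1 promoter (chr11:102798074-102798345), of interstitial collagenase, held an AP-1 match there and was closed in vehicle and baseline. An internal TNC promoter, of the matrix protein tenascin C, was closed in vehicle and baseline too and held an AP-1 match. The 1 h only gene of this list was ITGB1, with the TEAD region shown above. Of 20 lipid and sterol synthesis genes 3 were near a 12 h only region (SREBF1, FASN and LPIN1) and 4 near a 1 h only region, among them SREBF2, HMGCS1 and LPIN1. The HMGCS1 region (chr5:43285600-43287115), 0.652 kb past the end of this sterol synthesis gene, was open in both EGF 1 h libraries but in no vehicle, baseline, HRG 24 h or EGF 12 h library. The CDKN1A promoter (chr6:36676324-36676751), of the cell cycle inhibitor p21, was open at 1 h only and also in both EGF 1 h and 3 of 4 vehicle libraries.

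For the remaining lists the counts at 12 h only were 2 of 31 cell cycle genes, 7 of 27 glycolysis and hypoxia genes and 4 of 19 circadian clock genes, and at 1 h only 3, 1 and 0. Over all lists 53 genes had a 12 h only and 22 a 1 h only region within 100 kb, which became 14 and 6 within 10 kb. Of all protein-coding genes 3.40% and 1.06% had one within 10 kb. The pooled counts were not tested against these shares, and the number of regions near each gene was not matched. GINS2 and LMX1B had the most 12 h only regions, 5 each, of 24 and 29 merged regions nearest to them. CXCR4, a chemokine receptor gene, had 4 of 5. These 3 genes were picked after the counts were seen.

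Presence cannot vary in regions open in every library, so the peak score of 39193 regions open in all 8 HRG and vehicle libraries was compared with limma on the log2 scale after quantile normalization. Before normalization the median log2 score was 9.695 and 9.707 at 12 h and 9.446 and 9.568 at 1 h of HRG. In vehicle it was 9.523 and 9.495 at 12 h and 9.549 and 9.557 at 1 h, so the HRG times lay further apart. From 1 h to 12 h of HRG 6277 regions (16.0%) changed at a Benjamini-Hochberg adjusted p under 0.05, with 3630 higher (9.26%) and 2647 lower (6.75%). Vehicle gave 158 (0.403%), with 28 higher (0.0714%) and 130 lower (0.332%). The change itself differed between HRG and vehicle in 2026 regions (5.17%), higher with HRG in 1453 (3.71%) and lower in 573 (1.46%). With median centring in place of quantile normalization the split for HRG turned round, to 3554 higher and 5436 lower. The count for HRG fell to 2467 without HRG 12 h replicate 1, 2854 without HRG 12 h replicate 2, 2729 without HRG 1 h replicate 1 and 3369 without HRG 1 h replicate 2. Changes were mostly small, and 2-fold or more in 9.15% of the higher and 6.46% of the lower regions.

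**Figure D3:**
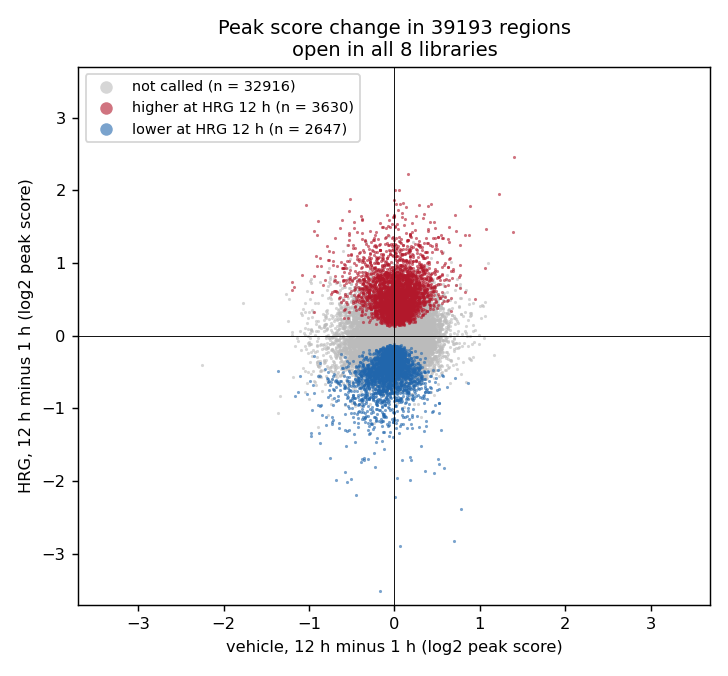
Change in log2 peak score from 1 h to 12 h with HRG (vertical) against the same change with vehicle (horizontal) in 39193 regions open in all 8 libraries. Each point is 1 region, coloured where the HRG change passed an adjusted p under 0.05 (limma), 3630 higher and 2647 lower. The spread is wider along the HRG axis (SD 0.32) than along the vehicle axis (SD 0.21).

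Against vehicle at the same time, the called regions stood apart mainly at 1 h. In the 3630 regions that were higher at 12 h, the mean HRG score was below vehicle at 1 h in 3256 (89.7%), with a median difference of -0.32, and at 12 h the median difference was 0.14. In the 2647 lower regions, HRG was above vehicle at 1 h by a median of 0.26 and below it at 12 h by a median of -0.13. These differences reuse the HRG libraries that made the call and are given as a description.

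The call with the smallest adjusted p was a region 0.953 kb past the end of EGR1, an immediate early zinc finger factor, at chr5:138469103-138471498. Its log2 peak score was 12.21 and 12.32 at 1 h and 9.42 and 9.47 at 12 h of HRG, and 11.12 and 11.18 at 1 h and 11.87 and 11.84 at 12 h of vehicle. With HRG it was thus highest at 1 h and lowest at 12 h, with the vehicle libraries between and without overlap of any groups. The HRG change was -2.82 ± 0.05 (SE, n = 2 libraries per group, limma adjusted p = 3.52e-07) and the vehicle change 0.70 (limma adjusted p = 0.00152). At the EGR1 promoter itself (chr5:138463673-138468979) the HRG change was -0.40 ± 0.03 (limma adjusted p = 0.000491).

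Upstream of NEDD9, a scaffold of integrin signaling (chr6:11389635-11390455, with a TEAD match), the log2 score was 10.24 and 10.16 at 1 h and 8.04 and 7.98 at 12 h of HRG, against 9.21, 9.12, 8.82 and 8.62 in vehicle. The fall was -2.19 ± 0.11 (limma adjusted p = 8.12e-05). The promoter region of EGR3, an EGR1 relative, fell by 1.95 ± 0.10 (limma adjusted p = 7.19e-05), from 11.85 and 11.86 to 10.08 and 9.74, with all 4 vehicle libraries between 10.11 and 10.16. It held 1 peak in some libraries and up to 3 in others, and its summed scores changed by -0.82. The remaining called regions with the smallest p were a DENND2B promoter that also lies within RPL27A (-1.45), a region in ERICH1 upstream of TDRP (-1.11, but 0.0092 when the −log10 p was used in place of the score) and an intergenic region 78.9 kb past BMP7 (-1.16, but -0.34 with summed scores and -0.0025, no longer called, with −log10 p).

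Lower regions with exactly 1 peak in each library, a list added after the data were seen, included 2 near cytoskeletal genes. At ACTG1, which encodes gamma actin (chr17:81517790-81520288, with AP-1 and TEAD matches), the log2 score was 12.29 and 12.26 at 1 h and 11.56 and 11.60 at 12 h of HRG, and 11.50 to 11.59 in vehicle. Only HRG at 1 h stood apart, and the fall was -0.69 ± 0.04 (limma adjusted p = 0.000183). Upstream of VCL, which encodes vinculin, the change was -1.46 ± 0.09 (limma adjusted p = 0.000183), and near EDN1, the endothelin 1 gene, -0.87 ± 0.06 (limma adjusted p = 0.0002).

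Among the higher regions, those with the smallest p had 1 peak in some libraries and 2 or 3 in others, so that their highest peak score moved with how the region was divided. At GPC1, a cell surface proteoglycan gene (chr2:240449724-240453321), the log2 score was 10.28 and 10.24 at 1 h and 12.18 and 12.23 at 12 h of HRG, and 10.54, 10.52, 11.70 and 11.83 in vehicle in the same order. The HRG change was 1.95 ± 0.06 (limma adjusted p = 5.84e-06) and 1.61 with the scores of all peaks summed, and vehicle rose with it, by 1.23. For the others the sum gave less than the highest score, 0.58 against 1.50 near JAM3, 0.36 against 1.07 at SPATA20 and EPN3, 0.66 against 1.43 in KLHDC4, 0.60 against 1.44 in NIBAN2 and 0.61 against 1.39 near TIMM22. Of all 6277 calls, 89.9% were in regions with 1 peak in every library, against 91.5% of regions tested.

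Among higher regions with 1 peak in each library, some were below every other library at 1 h of HRG. In an intron of ECE1, the endothelin-converting enzyme (chr1:21284526-21285679), the log2 score was 8.51 and 8.56 at 1 h of HRG and 10.07 and 9.99 at 12 h, with vehicle between 10.08 and 10.29. The change was 1.50 ± 0.09 (limma adjusted p = 0.000175). In BPIFB2 the score was 10.21 and 10.16 at 1 h of HRG, below vehicle at 10.87 and 10.68, and 11.43 and 11.39 at 12 h, above vehicle at 10.98 and 10.95. The largest rise among these, near TMEM63B (2.46 ± 0.13, limma adjusted p = 8.12e-05), was accompanied by a rise of 1.40 in vehicle.

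**Figure D4:**
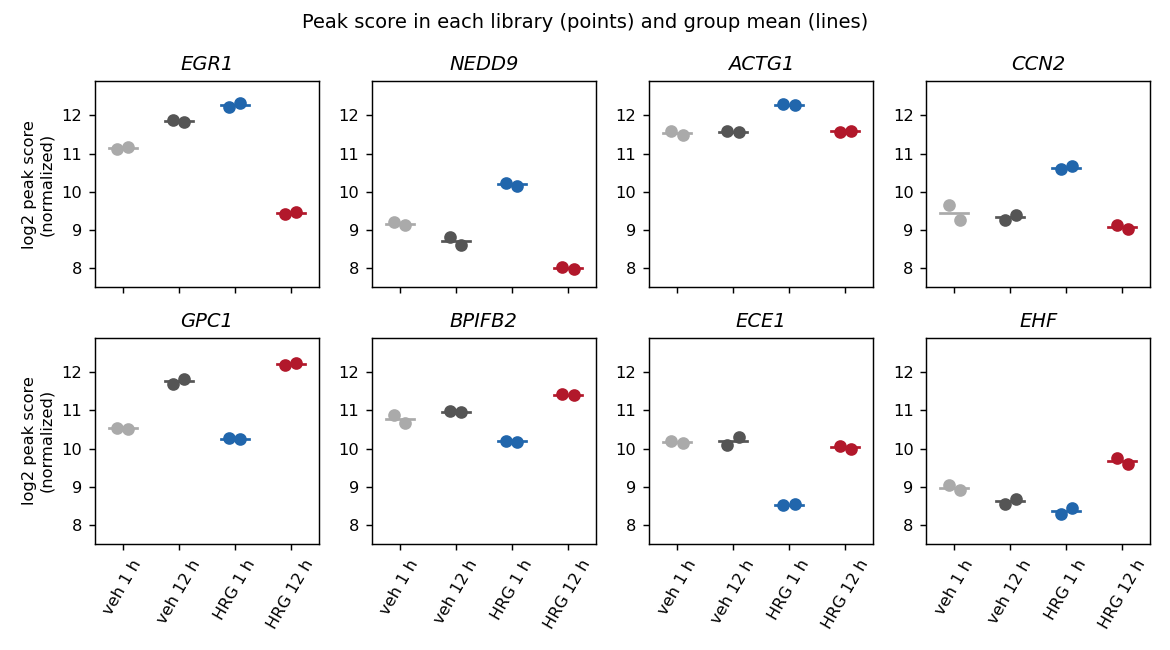
Normalized log2 peak score (vertical axis) in each library (points) with the group mean (line) for 8 regions that changed from 1 h to 12 h of HRG, by treatment and time; veh is vehicle and n = 2 libraries per group. EGR1 stands for the region past the gene end, CCN2 for the region 3.57 kb upstream. The top row fell with HRG and the bottom row rose, and at ECE1 the HRG 1 h libraries (8.51 and 8.56) lie below all others.

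Called regions differed in place and sequence. Promoters made up 22.9% of the higher, 43.8% of the lower and 43.8% of all tested regions. TEAD matches were present in 24.4% of the lower, 10.4% of the higher and 13.2% of all tested regions, and outside promoters in 32.4% (482 of 1487), 10.5% and 16.6%. Under median centring the share in the lower regions was 17.3%. AP-1 matches were present in 18.9% of the lower, 14.1% of the higher and 13.8% of all tested regions, but in 13.1% of the lower regions under median centring, below the share of all tested. Outside promoters AP-1 was present in 25.6% of the lower, 14.7% of the higher and 19.4% of all tested regions. Of 379 regions with a CRE, 69 were lower (18.2%, against 6.75% of all tested) and 2 were higher. Of 3606 regions with CEBP letters 448 were higher (12.4%, against 9.26%). These regions and the 1 h only regions are separate sets by construction, since none of the 39193 lacked a peak in any of the 8 libraries. Both sets were drawn from the same 4 HRG libraries, so their sequence shares are not independent observations.

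**Figure D5:**
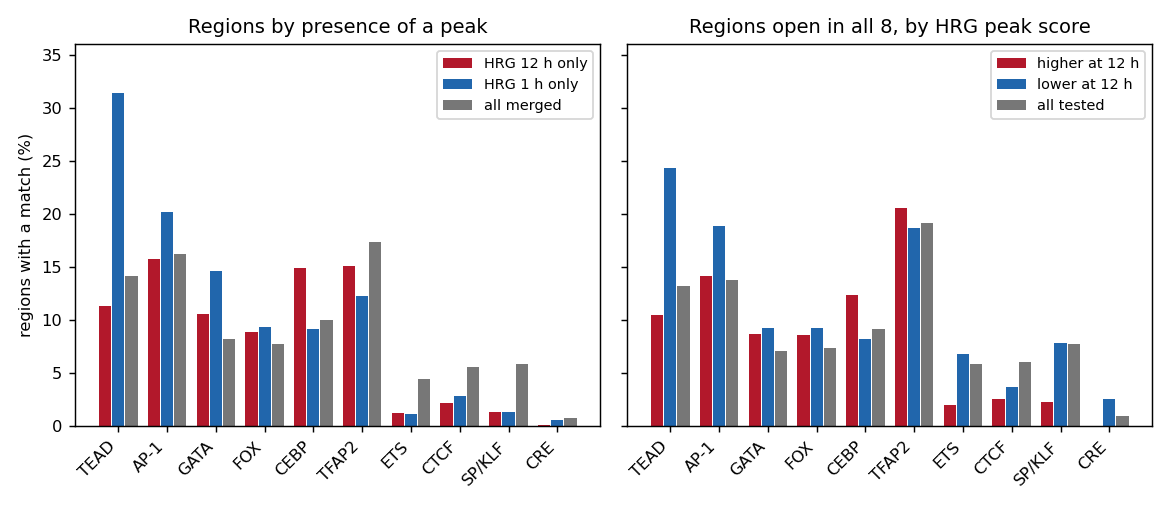
Share of regions, in percent, with a sequence match within 100 bp of the summit. On the left are HRG 12 h only, HRG 1 h only and all merged regions by presence of a peak, and on the right regions open in all 8 libraries that were higher or lower at 12 h of HRG by peak score, and all tested. TEAD is the tallest bar for 1 h only (31.4%) and for lower regions (24.4%).

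The gene lists were then read in the peak scores, over regions whose nearest protein-coding start lay within 100 kb, of which 2720 of 32029 (8.49%) were higher and 2146 (6.70%) lower, with a median change of -0.04. Immediate early genes had 13 higher and 26 lower of 115 regions (median -0.07), and AP-1 and related genes 5 higher and 13 lower of 68 (median -0.10). None of their promoters was higher, 0 of 33 and 0 of 20, while 10 and 7 were lower. Over all promoters 645 of 17011 (3.79%) were higher and 1161 (6.83%) lower. Regions named for the lists were taken by smallest adjusted p after the values were seen. A region whose nearest protein-coding start was JUN, which encodes an AP-1 subunit, changed by -1.77 ± 0.19 (limma adjusted p = 0.00124). Its score was 10.02 and 10.60 at 1 h and 8.40 and 8.68 at 12 h of HRG. The MAFK promoter fell by 1.08 ± 0.08 (limma adjusted p = 0.00034). Upstream of CCN2 (chr6:131954472-131955454, with AP-1 and TEAD matches) the score was 10.59 and 10.67 at 1 h and 9.12 and 9.03 at 12 h of HRG and 9.26 to 9.66 in vehicle, a change of -1.56 ± 0.13 (limma adjusted p = 0.000471). A region 41.3 kb upstream of SRF, the serum response factor gene, at a PTK7 promoter, rose by 1.13 ± 0.11 (limma adjusted p = 0.000927).

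Steroid receptors and luminal factors leaned the other way, with 33 higher and 9 lower of 153 regions (median 0.07), although median centring gave 30 and 21. Near GRHL2, an epithelial transcription factor gene, a region with a TEAD match scored 11.39 and 11.38 at 1 h and 12.33 and 12.33 at 12 h of HRG, with vehicle at 11.32 to 11.37. Only HRG at 12 h stood apart, by 0.94 ± 0.04 (limma adjusted p = 2.23e-05). In an intron of EHF, an epithelial ETS factor (chr11:34654849-34655285), the score was 8.28 and 8.44 at 1 h and 9.75 and 9.60 at 12 h of HRG, a change of 1.32 ± 0.12 (limma adjusted p = 0.000716), against 8.56 to 9.04 in vehicle.

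ERK feedback inhibitors had 15 higher and 14 lower of 90 regions. Near DUSP6 4 regions rose, the strongest call 31.2 kb upstream by 1.49 ± 0.16 (limma adjusted p = 0.00132), from 7.77 and 7.94 to 9.32 and 9.37, and the others by 0.58, 0.78 and 1.09. Vehicle at the first went from 8.19 and 8.65 to 9.12 and 9.01. At the DUSP14 promoter the change was -0.33 ± 0.04 (limma adjusted p = 0.00127). The 27 regions of ERBB receptors and ligands had 0 higher and 4 lower, at EREG (-0.61), EPGN (-0.50), NRG3 (-0.35) and the AREG promoter (-0.31), which holds a CRE. The EREG region changed by -0.68 in vehicle (limma adjusted p = 0.0645), and the change differed between HRG and vehicle in 0 of the 27 regions. The HER3 signal relay had 1 higher and 3 lower of 56, and cell cycle genes 2 and 1 of 51. Adhesion, matrix and protease genes had 8 higher and 7 lower of 78, and upstream of ITGB6, an epithelial integrin subunit, the score rose from 11.01 and 10.96 to 12.11 and 12.06 (1.10 ± 0.05, limma adjusted p = 2.23e-05). Glycolysis and hypoxia genes had 12 higher and 6 lower of 94, lipid and sterol synthesis genes 13 and 7 of 86, and circadian clock genes 2 and 7 of 50. Median centring gave more lower calls over all regions, with 2592 higher and 4759 lower of 32029. No list was tested against these totals. The higher and lower counts were then 14 and 20 for ERK feedback inhibitors, 0 and 5 for ERBB receptors and ligands and 1 and 7 for the relay. They were 2 and 6 for cell cycle genes, 8 and 13 for adhesion genes and 11 and 10 for glycolysis genes. For lipid genes they were 15 and 12 and for clock genes 3 and 13. Immediate early genes then had 12 and 34, and AP-1 and related genes 3 and 20. At the FASN promoter, of fatty acid synthase, the change was 0.50 ± 0.07 (limma adjusted p = 0.00342).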

How the data were processed

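ATAC-seq peak lists of 40 libraries were analysed, 8 of them in the comparisons here. Reads had been trimmed by the authors with Trim Galore 0.6.6 and mapped to GRCh38 with BBMap, and Genrich called peaks in each library after removal of mitochondrial reads and blacklisted regions. Its options, which can change the number and width of peaks, were not given in the sources. The peak score deposited by the authors is Genrich's area under its significance curve, with a minimum of 200. A deposited −log10 p per peak served as an alternative to it. Scores depend on the depth of their library, which the lists do not give. Read-based differential analysis, used by the study, could not be repeated on peak lists.

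Regions were merged and annotated with GENCODE 44 in Python 3.11.15 (pandas 2.3.3, numpy 2.4.6, pysam 0.24.0, samtools 1.23.1, scipy 1.17.1). A promoter lay within 1 kb of a start site. Motif letters were searched on both strands within 100 bp of the summit of the highest-scoring peak. Besides those spelled in the text they were FOX TGTTTAC, ETS CCGGAAG, TFAP2 GCCNNNGGC, SP/KLF GGGGCGGGG, and CTCF. Presence of peaks chose the members and was not tested. The highest log2 peak score of each region open in all 8 libraries was quantile normalized and tested with limma 3.58.1 in R 4.3.3, with a mean-variance trend and Benjamini-Hochberg adjustment over all 39193 regions, after a test on simulated data. Each group has 2 libraries.

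The members, gene lists and tests were chosen with earlier results of these data known. Named regions were the 5 of highest mean rank in each class of 12 h only or 1 h only regions with 0 or 4 open vehicle libraries, up to 4 genes per list and direction, and the 6 regions per direction with the smallest limma p. Other named regions were chosen after their values were seen. Alternatives covered the score minimum, equal list lengths, trimmed peaks, motif windows, normalization, the kind of score, the fit and left-out libraries. The longer TEAD letters, the other alternatives for TEAD, the distance to gene ends and the restriction to regions with 1 peak in every library were added after seeing the data. Some items are not reported here.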

Additional observations from a re-analysis of the deposited data

Results flagged for a closer look

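The change in peak score from 1 h to 12 h differed between HRG and vehicle in 2026 regions by the limma test of that difference. The 6 regions of smallest p with a more positive change in HRG, on the log2 scale, were in NIBAN2 (2.38), near TIMM22 (2.29), PITX1 (2.03), MROH6 (1.26), SULF2 (1.41) and JAM3 (1.55). The 6 with a more negative change were past the end of EGR1 (-3.52), in the intergenic region past BMP7 (-1.15), at the EGR1 promoter (-0.70), at EGR3 (-1.98), at the NIPSNAP1 promoter (-1.52) and at LMX1B (-0.84). In NIBAN2 and near TIMM22, PITX1 and MROH6 the HRG change was upward and the vehicle change downward, by -0.94, -0.90, -0.69 and -0.50. At LMX1B the HRG change was 0.07 and the vehicle change 0.91. Of the 2026 regions 1690 (83.4%) had 1 peak in every library, and of these 12 only the region past EGR1 did. With summed scores the difference was 0.65 in NIBAN2, 0.66 near TIMM22, 0.89 near PITX1, 0.37 at MROH6 and 0.64 near JAM3, and -0.26 past BMP7, -0.89 at EGR3 and -0.16, no longer called, at NIPSNAP1.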

How the results depend on the processing

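Values of the main results that moved are given here, and for main results not listed the alternatives stayed within the limits of each measure. The higher and lower counts of the peak score fit and the counts of single gene lists also moved under some alternatives. Not all of those are listed. With summed scores the differences between HRG and vehicle were 2590 higher and 1165 lower, against 1453 and 573. With a score of at least 400, 1 h only regions numbered 541, of which 61.9% were never open in vehicle, 23.5% held AP-1 and 21.4% were promoters, and in 12 h only regions AP-1 was 17.7%, TEAD 10.1% and promoters 17.1%. With lists of equal length the counts were 1947 and 1626, the never-open shares 27.5% and 42.9%, and TEAD 27.6% at 1 h only. With peaks trimmed to 400 bp promoters were 18.4% and 28.5%, and at 1 h only the never-open share was 45.3% and TEAD 26.0%. Over all 8 libraries without ligand the never-open shares were 21.0% and 47.6%. Windows of 250 bp gave AP-1 in 23.6% and 28.9% and TEAD in 25.1% and 44.1%, whole regions 22.3%, 27.8%, 20.1% and 40.6%, the longer TEAD letters 2.59% and 14.4%, and promoters within 3 kb 29.8% and 31.0%. The covered length of the vehicle lists changed by -0.822 Mb from 1 h to 12 h, although they held more peaks at 12 h. Genes with a region within 10 kb numbered 14 and 6.

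Leaving out 1 library at a time, HRG 12 h only regions ranged from 4442 to 5883 and 1 h only from 1266 to 1820, vehicle 12 h only from 1819 to 1942 and 1 h only from 1619 to 1859. Never-open shares ranged from 24.6% to 40.4% at 12 h only and 40.6% to 60.5% at 1 h only, TEAD at 1 h only from 27.1% to 31.2%, and promoters from 15.7% to 17.7% and 18.8% to 20.9%. Such counts rise because 1 library then decides a time. By peak score, HRG calls ranged from 2467 to 5897, vehicle calls from 116 to 238 and differences from 739 to 1245, and each of the 8 omissions lowered the count of differences by over 1.5 times.

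Vehicle calls were 567 with summed scores, 653 with −log10 p, 88 without the trend and 614 in regions with 1 peak in every library, and differences were 3755 with summed scores and 3563 in regions with 1 peak. Near TDRP the HRG change turned to 0.0092 with −log10 p, at the EGR1 promoter the difference turned to 0.0070, and at LMX1B to 0.22 with summed scores and 0.025 with −log10 p. Of 365 alternative values of the named regions 351 kept direction and call, 10 lost the call and 4 turned. Replicate numbers are shared by the groups, but same-numbered libraries did not deviate together (r from -0.052 to 0.0862), so the number is no pairing. With the replicate block 5492 HRG regions, 103 vehicle regions and 1529 differences were called. The causes of these shifts were not tested.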
